A study of Homo sapiens with 12 samples.

Results

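The HOX cluster genes are the protein-coding genes whose symbols start with HOXA, HOXB, HOXC or HOXD followed by digits. By that rule 39 genes were taken from the 61552 genes listed in each count table: 11 HOXA, 10 HOXB, 9 HOXC and 9 HOXD genes. Poly-A RNA had been sequenced from RD cells, an established human line grown from 1 embryonal rhabdomyosarcoma, a soft tissue tumour with features of immature skeletal muscle. All cells were transfected with Lipofectamine RNAiMAX and collected after 48 h. The siScr group (n = 3 libraries) had received a scrambled small interfering RNA and the siEHMT1 group (n = 3 libraries) an siRNA against EHMT1. EHMT1, also named GLP, is a methyltransferase that acts on lysine 9 of histone H3, a mark found on silent chromatin. Both groups were thus of 1 cell line and carried a transfected siRNA, and neither an untransfected culture nor another siRNA against EHMT1 was analysed here.

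HOX genes encode transcription factors with a homeodomain, the fold that holds DNA through its last helix. In vertebrates they lie in 4 clusters, and genes at the same place in different clusters are copies of each other, called a paralog group. The order of the genes along a cluster matches the order of the body regions they help to pattern, from the hindbrain (low group numbers, anterior) through the trunk to the tail, limb ends and genital region (high group numbers, posterior). Polycomb complexes are known to keep HOX genes silent and Trithorax complexes to keep them active. Adult cells and many tumours keep a set of HOX genes on that reflects where in the body the cells came from. Here groups 1 to 3 are called anterior, groups 4 to 8 central and groups 9 to 13 posterior.

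The clusters also hold microRNA genes whose products pair with HOX transcripts, and their mature sequences show how close that link is. They are given as RefSeq lists them (GRCh38.p14), 5′ to 3′, with the seed (bases 2 to 8) in capitals, since the seed is the part that finds targets.
miR-10a-5p (MIR10A, chr17:48579904-48579926, minus strand): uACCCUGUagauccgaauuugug
miR-196a-5p (MIR196A1, chr17:48632532-48632553, minus strand): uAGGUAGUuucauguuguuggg
miR-196b-5p (MIR196B, chr7:27169528-27169549, minus strand): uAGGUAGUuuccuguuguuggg
The miR-196 genes share 1 seed, and MIR196A2 of the HOXC cluster gives the same mature sequence as MIR196A1 of the HOXB cluster. The best match to miR-196a in the HOXB8 transcript was a stretch of 22 bases, printed below with the bases that form Watson-Crick pairs with the microRNA in capitals.
HOXB8: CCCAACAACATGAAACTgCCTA
In that stretch 21 of the 22 bases paired, and the remaining base lies opposite the seed. HOXB8 transcripts in GENCODE release 29 held no exact 7-base match to the seed, spelled ACTACCT on the sense strand. Transcripts of 10 of the 39 HOX genes did (among them HOXA5, HOXA6, HOXA7, HOXA9, HOXB1, HOXB6, HOXB7, HOXB13 and HOXC8), against 18.3% of the 19669 protein-coding genes, whose transcripts differ in length. The match to the miR-10a seed, ACAGGGT, was in transcripts of 5 HOX genes (among them HOXA3, HOXB2, HOXB3 and HOXB5) and of 21.8% of protein-coding genes. A match is a string of letters and does not show that a site is used. The libraries were made from poly-A RNA, so mature microRNAs were not measured. The counts at the microRNA genes themselves were 129 for MIR10B, 62 for MIR196A1 and 20 for MIR196A2 over all 6 libraries. They were 0 for MIR10A and MIR196B, but these genes overlap exons of HOXB4 and HOXA9 on the same strand. A read over both genes of such a pair is ambiguous and is not counted, so a count of 0 there does not show absence. Counts per library were 19 to 23 for MIR10B and 4 to 22 for MIR196A1, with the groups overlapping.

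The members that the comparison below turns on differ in the bases of the homeobox stretch that codes for part of the third helix. This helix contacts DNA. These 27 bases are given from the GENCODE release 29 transcripts, 5′ to 3′ on the sense strand, with capitals where the 5 printed genes differ.
HOXB4: tggttCcaGaaCCgGCgCAtGaaGTGG
HOXC10: tggttTcaAaaTCgCAgAAtGaaACTC
HOXA11: tggttTcaGaaCAgGAgAAtGaaGGAA
HOXB13: tggttTcaGaaCCgCCgGGtCaaAGAG
HOXC13: tggttCcaGaaCCgGCgGGtCaaAGAG
Of the 27 bases, 13 differed among the 5 genes and 14 were alike. Only bases were compared, and a base can differ while the encoded amino acid stays the same. The count is thus no measure of how far the helices differ. The end of the stretch was the same in the group 13 genes, HOXB13 and HOXC13. The longest exact run of bases that any 2 HOX genes of different clusters shared in their transcripts was 62 bases, between HOXB3 and HOXD3. The median over 569 such pairs was 15 bases, and only that pair shared a run of over 50.

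The count tables give each gene in an unstranded column and in a column for each strand. The unstranded column gives the main values, and the second strand column, which held 87.1% to 89.0% of the strand counts in each library, is given beside it. In the unstranded column a read over 2 overlapping genes on opposite strands is ambiguous and is not counted. Levels are CPM, counts scaled to the library's gene counts with TMM factors. Gene counts ranged from 40639655 to 47258481 per library, at which 3 counts are 0.0635 to 0.0738 CPM. The floor covers counting error only.

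The siRNA target was lower in the libraries labelled siEHMT1. EHMT1 (ENSG00000181090) stood at 131, 156 and 130 CPM in siScr replicates 1, 2 and 3 and at 53.2, 54.3 and 57.5 CPM with siEHMT1. Its level with siEHMT1 was 39.6% of that with siScr (log2 fold change -1.34, SE 0.072, edgeR quasi-likelihood adjusted p = 9.13e-09). By an exact permutation test, two-sided, p was 0.1, as low as 3 against 3 libraries can reach. Markers of skeletal muscle were present: 9 of 12 were at 1 CPM or more with siScr, with MYOD1 at 151 CPM and MYOG at 49.5 CPM, and MYF5 was at 0. None of 5 epithelial, 4 endothelial and 4 blood markers reached 1 CPM. siScr replicate 2 lay apart from the others on the first principal component, at -30.2 against -8.74 and -4.46 for the other siScr libraries and 13.6 to 15.4 for siEHMT1.

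Most HOX genes were on in RD cells. With siScr, 33 of the 39 had a mean of at least 1 CPM in the unstranded column, and 33 did in the second strand column. All 11 HOXA genes, 9 of 10 HOXB genes, 8 of 9 HOXC genes and 5 of 9 HOXD genes reached that level. By position the share was 6 of 8 anterior, 14 of 15 central and 13 of 16 posterior genes. At a threshold of 5 CPM 26 remained, of which 5 were HOXA, 9 HOXB, 8 HOXC and 4 HOXD genes. The cells thus held transcripts of the whole range of positions, and group 13 was represented by a gene of every cluster. In bulk RNA a gene on in few cells and a gene weakly on in all cells cannot be told apart.

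Below 1 CPM were 6 HOX genes, 4 of them in the HOXD cluster. HOXB1, a gene of the anterior hindbrain, had 0 counts in all 6 libraries, so a level of up to 0.0635 to 0.0738 CPM is possible. HOXD1 was at 0.105 CPM ± 0.091 with siScr (SD, n = 3), HOXD11 at 0.170 CPM ± 0.00522 and HOXD12 at 0.0552 CPM ± 0.0367. HOXD12 rested on 1, 2 and 4 counts with siScr and 5, 4 and 6 with siEHMT1, near the floor. HOXD10 was at 0.477 CPM ± 0.114 and HOXC5 at 0.696 CPM ± 0.310. HOXD10, HOXD11 and HOXD12 lie side by side between HOXD9, at 6.87 CPM ± 0.377, and HOXD13, at 6.54 CPM ± 0.354, genes known for patterning the limb. The gap was seen in every library: HOXD11 had 1 to 8 counts in each of the 6 libraries in the unstranded column.

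Levels can be set against each other only per length. Per kb of exon not shared with another gene on the same strand (GENCODE release 29), and in the second strand column, HOXB2 was highest at 19.3 CPM per kb ± 0.951 (SD, n = 3, siScr). HOXB8 followed at 18.3 ± 1.55 and HOXB7 at 17.1 ± 1.51. These neighbours overlapped in their libraries, so their order is not resolved. HOXC10 was at 13.9 ± 1.01, HOXB9 at 12.5 ± 1.27, HOXC4 at 12.3 ± 0.723 and HOXA10 at 12.1 ± 0.644. The lowest of the 33 expressed genes was HOXA13, a gene of limb ends and the genital region, at 0.536 ± 0.0914. Of 32 neighbouring pairs in this order, 24 overlapped in their siScr libraries and 8 did not. With the unstranded counts over the whole exonic length, HOXB8 led at 20.6 CPM per kb, above 88.7% of protein-coding genes, ahead of HOXB7 at 18.9 and HOXB2 at 15.1. The HOXB cluster thus held the top 3 genes on both scales. The unstranded scale counts fewer reads over the same length for genes with antisense partners, HOXB2 among them.

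**Figure D1:**
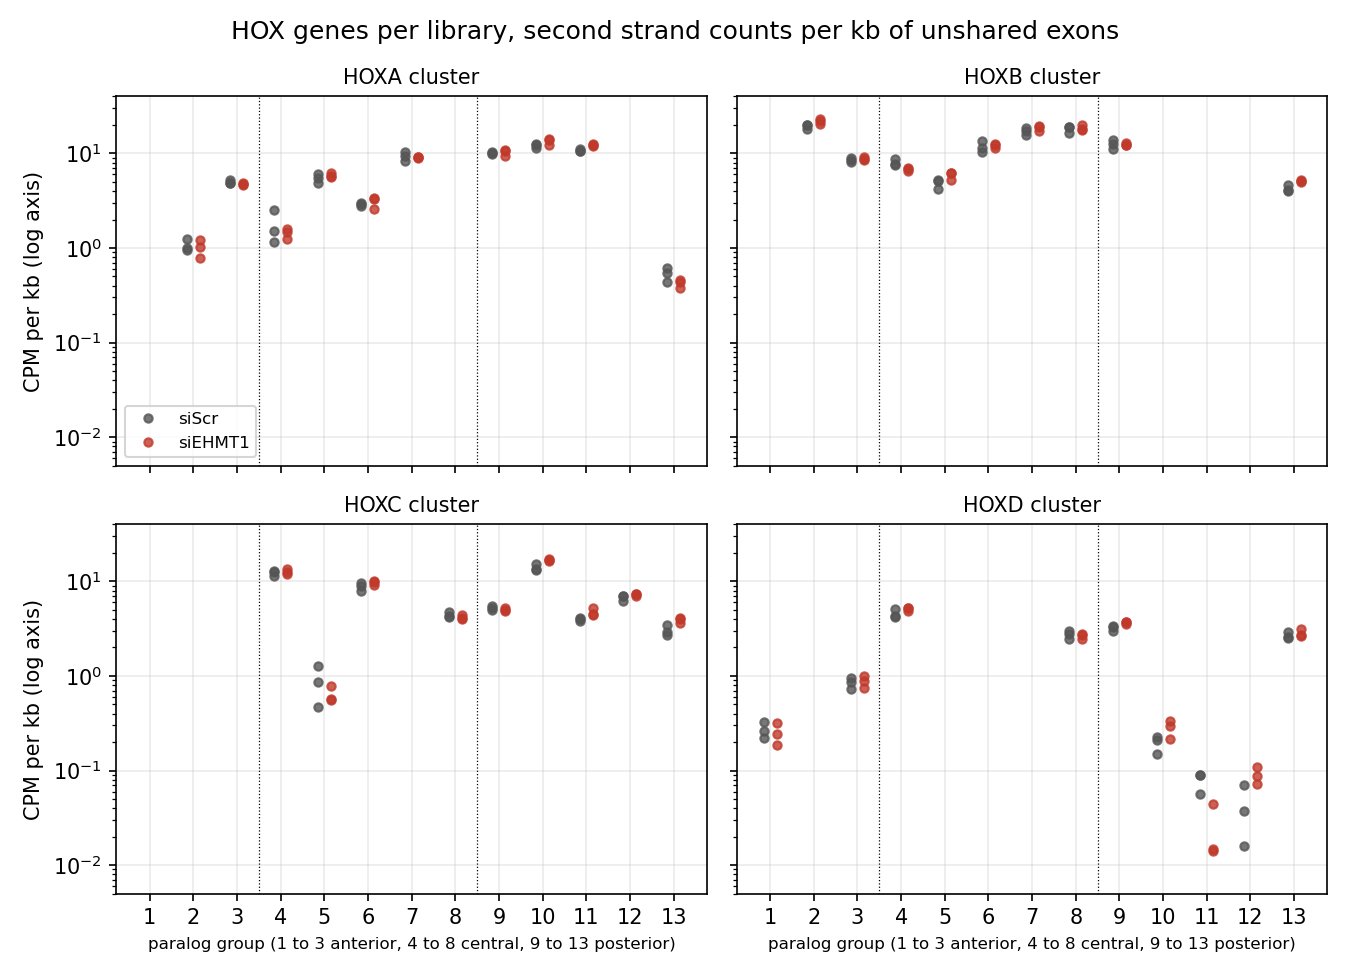
CPM per kb of unshared exon in the second strand column (log axis) against paralog group, 1 panel per cluster; each point is 1 library, grey for siScr and red for siEHMT1, and dotted lines separate anterior, central and posterior groups. The HOXB genes from groups 2 to 9 sit between about the level of HOXB5 (4.85) and that of HOXB2 (19.3), while HOXD10, HOXD11 and HOXD12 lie far below HOXD9 and HOXD13; libraries at 0 (HOXB1) and 1 gene not reported here are not drawn.

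Within a paralog group the clusters did not match. In group 13, HOXB13, a gene of the tail and the prostate, had 4.25 CPM per kb ± 0.316 with siScr, HOXC13, a gene of hair follicles, 3.05 ± 0.390, HOXD13 2.68 ± 0.200 and HOXA13 0.536 ± 0.0914. In group 10, HOXC10 and HOXA10 stood at 13.9 and 12.1 CPM per kb and HOXD10 at 0.194. In group 4, HOXC4 was at 12.3, HOXB4 at 7.96 ± 0.684, HOXD4 at 4.51 ± 0.484 and HOXA4 at 1.74 ± 0.709. HOXC5 stood at 0.871 ± 0.402 CPM per kb between HOXC4 and HOXC6, at 8.80 ± 0.887. HOXC4, HOXC5 and HOXC6 share exons in the annotation, and only 40.1% of the exonic length of HOXC5 is its own, so their split is uncertain. HOXB3 and HOXB6 overlap on the same strand as well.

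For 11 members the second strand column held clearly more counts, by 1.30 times or more. HOXA7 had 4.33 times as many counts in the second strand column as in the unstranded column: its siScr mean was 4.92 CPM ± 0.870 unstranded and 22.5 CPM ± 2.30 by strand. Only 37.5% of its exonic length is free of another gene on either strand, and the overlapping gene is HOXA-AS3, an antisense RNA. HOXD1 had 4.17 times as many, HOXA10 1.97, HOXD3 and HOXB6 1.71 each, and HOXA6 1.52 times. The other 5 were HOXB3, HOXA11, HOXA3, HOXA4 and HOXB2, at 1.30 to 1.40 times. Of the 11, 6 were HOXA, 3 HOXB and 2 HOXD genes, and none was a HOXC gene. HOXD3 was the exception in its strand: 42.7% of its strand counts were in the second strand column, against 73.3% or more for each of the other 37 genes with counts. HOXD3 overlaps HAGLR and HOXD-AS2 on the opposite strand.

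**Figure D2:**
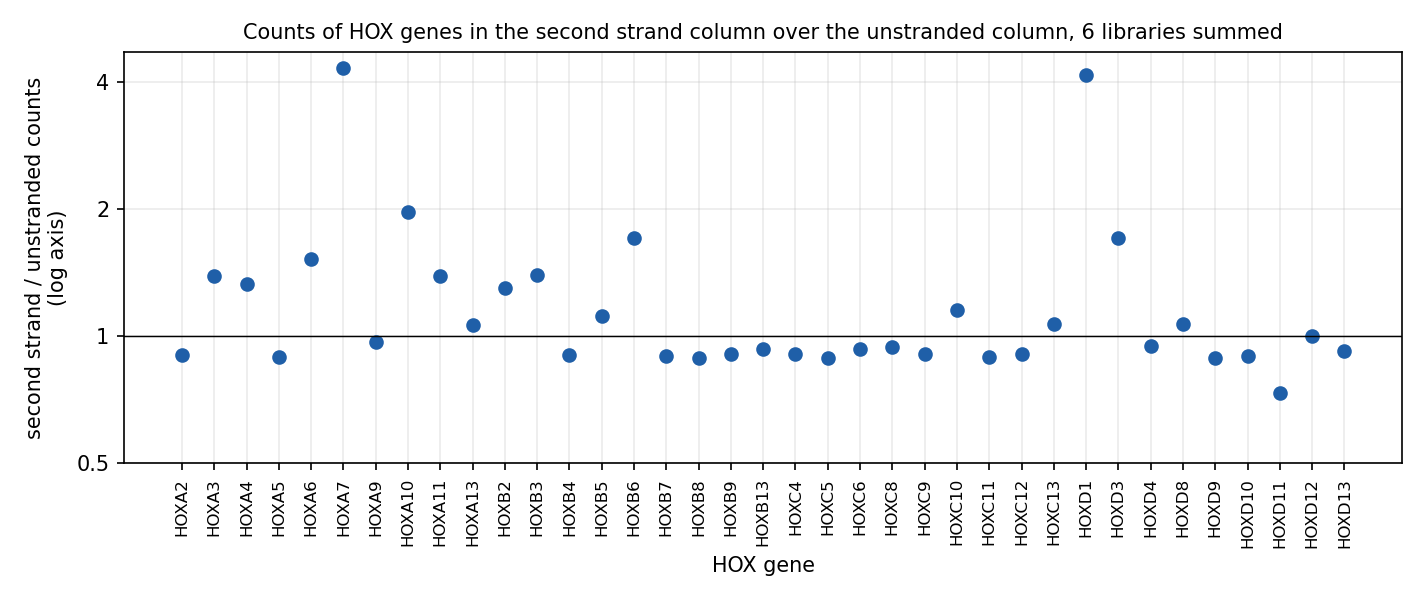
Ratio of counts in the second strand column to counts in the unstranded column (log axis) for 37 HOX genes with a count, each point the sum over 6 libraries; the line marks equal counts. HOXA7 (4.33) and HOXD1 (4.17) stand highest, and most HOXC and HOXD genes lie near or just below 1.

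RefSeq's promoter table held 26 start sites of 20 of the 39 genes. The 250 bases before the start of HOXA11, which is expressed, and of HOXB1, which had no read, are printed as examples of a member with and a member without counts (GRCh38.p14, 5′ to 3′ on the gene's strand), with every CG dinucleotide in capitals. CG dinucleotides are the sites of DNA methylation and are dense in the promoters of most developmental genes.
HOXA11 (chr7:27185233-27185482, minus strand): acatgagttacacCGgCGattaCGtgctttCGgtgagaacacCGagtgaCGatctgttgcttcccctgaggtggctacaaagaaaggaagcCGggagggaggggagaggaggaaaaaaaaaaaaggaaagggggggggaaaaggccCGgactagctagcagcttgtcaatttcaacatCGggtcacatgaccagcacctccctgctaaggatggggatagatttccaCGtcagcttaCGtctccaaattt
HOXB1 (chr17:48531012-48531261, minus strand): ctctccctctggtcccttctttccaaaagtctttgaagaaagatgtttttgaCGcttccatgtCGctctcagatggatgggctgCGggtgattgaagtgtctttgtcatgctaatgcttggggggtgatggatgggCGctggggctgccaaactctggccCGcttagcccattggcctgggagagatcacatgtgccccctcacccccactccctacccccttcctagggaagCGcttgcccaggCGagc
HOXA11 held 11 CG dinucleotides in this window and HOXB1 7. The median was 19.5 over the 26 HOX windows, with a range of 0 to 40, and 11 over 34788 windows of the same length for all genes. Both printed promoters were thus below the HOX median. Of the low HOXD genes, HOXD12 was below it as well, with 16, while HOXD1 held 31 and HOXD10 and HOXD11 held 23 each. The letters TATAAA, searched on both strands, were in 5 of the 26 HOX windows and in 10.8% of all windows. TGATNNAT, a spelling of the site that HOX proteins bind with PBX partners, was in 3 of 26 and in 6.49% of all. These are descriptions of letters, not of binding, and RNA counts give no methylation.

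With siEHMT1, HOX genes were called in the unstranded column at near the share of all genes tested. Of the 35 HOX genes that passed the filter on low counts, 3 rose (HOXA11, HOXB13 and HOXC10) and 1 fell (HOXB4) in the unstranded column. Over all 18646 genes tested, 12.4% were called, 5.81% higher and 6.54% lower, so 4 of 35 is near the share over all genes. By strand 36 HOX genes were tested, 3 rose (HOXB13, HOXC10 and HOXC13) and none fell by edgeR at an adjusted p below 0.05, with 2 lower at an unadjusted p below 0.05. DESeq2 and limma-voom, run on the unstranded counts, called the same 3 higher and 1 lower as edgeR did there. In the second strand column edgeR called 12.8% of 18725 genes, 6.15% higher and 6.62% lower. HOXB13 and HOXC10 were the genes called in both columns. At an unadjusted p below 0.05 there were 10 HOX genes in each column, against 25.6% of all genes unstranded and 25.8% in the second strand column. The called HOX genes changed by 0.22 to 0.35 in size on the log2 scale in the column that called them, and the median size among all called genes was 0.33 unstranded. HOXB1, HOXD11 and HOXD12 were tested in neither column, and HOXD1 only in the second strand column. The labels leave it unsaid whether each library had its own culture, and the spread behind every p-value may be technical.

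The genes called higher in either column were posterior, as were 14 of the 35 HOX genes tested unstranded. Without siScr replicate 2, the central genes HOXB5, HOXB7 and HOXC6 were called higher as well in the unstranded column. HOXB13 had 14.5, 15.2 and 16.8 CPM in siScr replicates 1, 2 and 3 and 18.9, 19.5 and 18.8 CPM with siEHMT1. All 3 siEHMT1 libraries were above all siScr libraries. On the log2 scale the change was 0.30 (SE 0.079, edgeR quasi-likelihood adjusted p = 0.0200), from 15.5 ± 1.19 to 19.1 ± 0.376 CPM (SD, n = 3), and 0.26 in the second strand column (edgeR adjusted p = 0.0446). The unstranded call was lost without siScr replicate 1 or any siEHMT1 library. Across the fits to the unstranded counts the log2 fold change was between 0.25 and 0.36.

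HOXC10, a posterior gene of the lumbar trunk and hindlimb, had 25.2, 28.5 and 25.7 CPM with siScr and 30.0, 30.9 and 31.8 CPM with siEHMT1. The groups did not overlap. Its fold change on the log2 scale was 0.22 (edgeR adjusted p = 0.0438, SE 0.070), and by strand 0.26 (edgeR adjusted p = 0.0161). Its unstranded call was lost without siScr replicate 1 or 3 or any siEHMT1 library.

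HOXA11, a gene of the forearm, kidney and uterus, had 17.4, 16.1 and 18.1 CPM with siScr and 22.0, 19.6 and 20.7 CPM with siEHMT1. Every siEHMT1 library was above every siScr library. The mean went from 17.2 ± 1.05 to 20.7 ± 1.21 CPM (log2 fold change 0.27, SE 0.078, edgeR adjusted p = 0.0317). In the second strand column, which held 1.39 times as many of its counts, the groups also did not overlap, with a log2 fold change of 0.19 that did not pass (edgeR adjusted p = 0.0734). The unstranded call was lost without any 1 of the siEHMT1 libraries.

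HOXC13 had 6.38, 6.33 and 8 CPM with siScr and 8.18, 8.91 and 9.29 CPM with siEHMT1. All siEHMT1 libraries were above siScr replicate 3, the highest of its group, by little. The log2 fold change was 0.35 in both columns, with edgeR adjusted p = 0.0506 unstranded and 0.0419 in the second strand column.

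HOXB4, a central gene known from blood stem cells, was the HOX gene that fell. It had 26.4, 26.4 and 29.9 CPM with siScr and 23.6, 22.5 and 23.4 CPM with siEHMT1, with no overlap. The mean went from 27.6 ± 2.02 to 23.2 ± 0.588 CPM (log2 fold change -0.25, SE 0.073, edgeR adjusted p = 0.0301). By strand the log2 fold change was -0.23 and did not pass (edgeR adjusted p = 0.0588). The unstranded call was lost without siScr replicate 3, its highest library, or any siEHMT1 library.

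**Figure D3:**
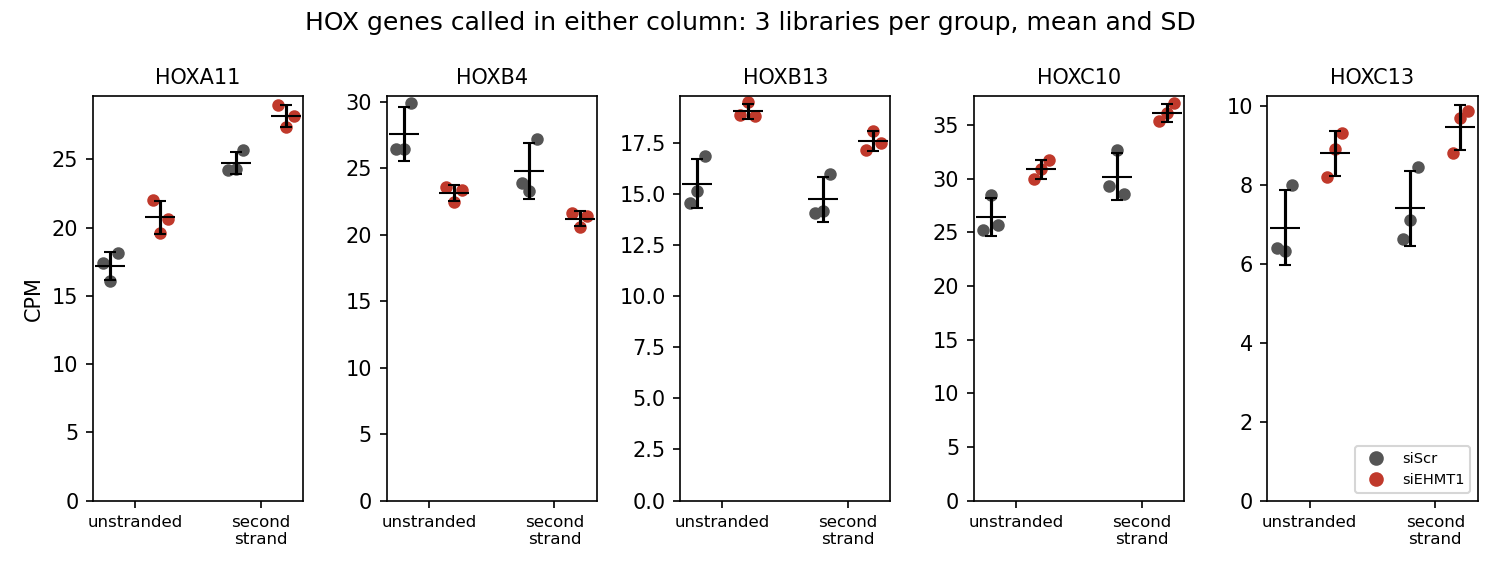
CPM of the 5 HOX genes called in either column, with 1 point per library (grey siScr, red siEHMT1), the mean as a bar and the SD (n = 3) as whiskers, for the unstranded and the second strand column. HOXA11, HOXB13, HOXC10 and HOXC13 sit higher and HOXB4 lower with siEHMT1, with no overlap between groups in either column.

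Posterior genes had the highest median fold change of the 3 position classes. Of the 14 posterior genes tested, 10 had a log2 fold change above 0 in the unstranded column, with a median of 0.17. The median was 0.03 over 15 central and -0.002 over 6 anterior genes. By strand 11 of 14 posterior genes were above 0, again with a median of 0.17, against 0.04 for central and -0.06 for anterior genes. Over all HOX genes tested, 23 of 35 were above 0 with a median of 0.05, and 23 of 36 by strand with the same rounded median. All genes tested had a median of 0.001 unstranded and 0.004 by strand, and 50.2% and 50.8% were above 0. The differences between positions were not tested, and the 39 genes are not independent of each other.

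Genes with every siEHMT1 library above every siScr library were mostly posterior, and those with every library below were not. In 7 of the 35 HOX genes every siEHMT1 library was above every siScr library, against 15.4% of all genes tested. These were HOXB5, HOXA11, HOXB13, HOXC10, HOXC11, HOXC13 and HOXD9, all posterior but HOXB5. In 5 of the 35 (HOXA3, HOXA4, HOXA13 and HOXB4 among them) every siEHMT1 library was below, against 15.5%. By strand 7 of 36 were above, against 15.8%, and 2 of 36 (HOXB4 among them) below, against 15.2%. There HOXB2 took the place of HOXB5 among the genes above. HOXD11 and HOXD12, which were not tested, also separated but at 8 counts or fewer per library.

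**Figure D4:**
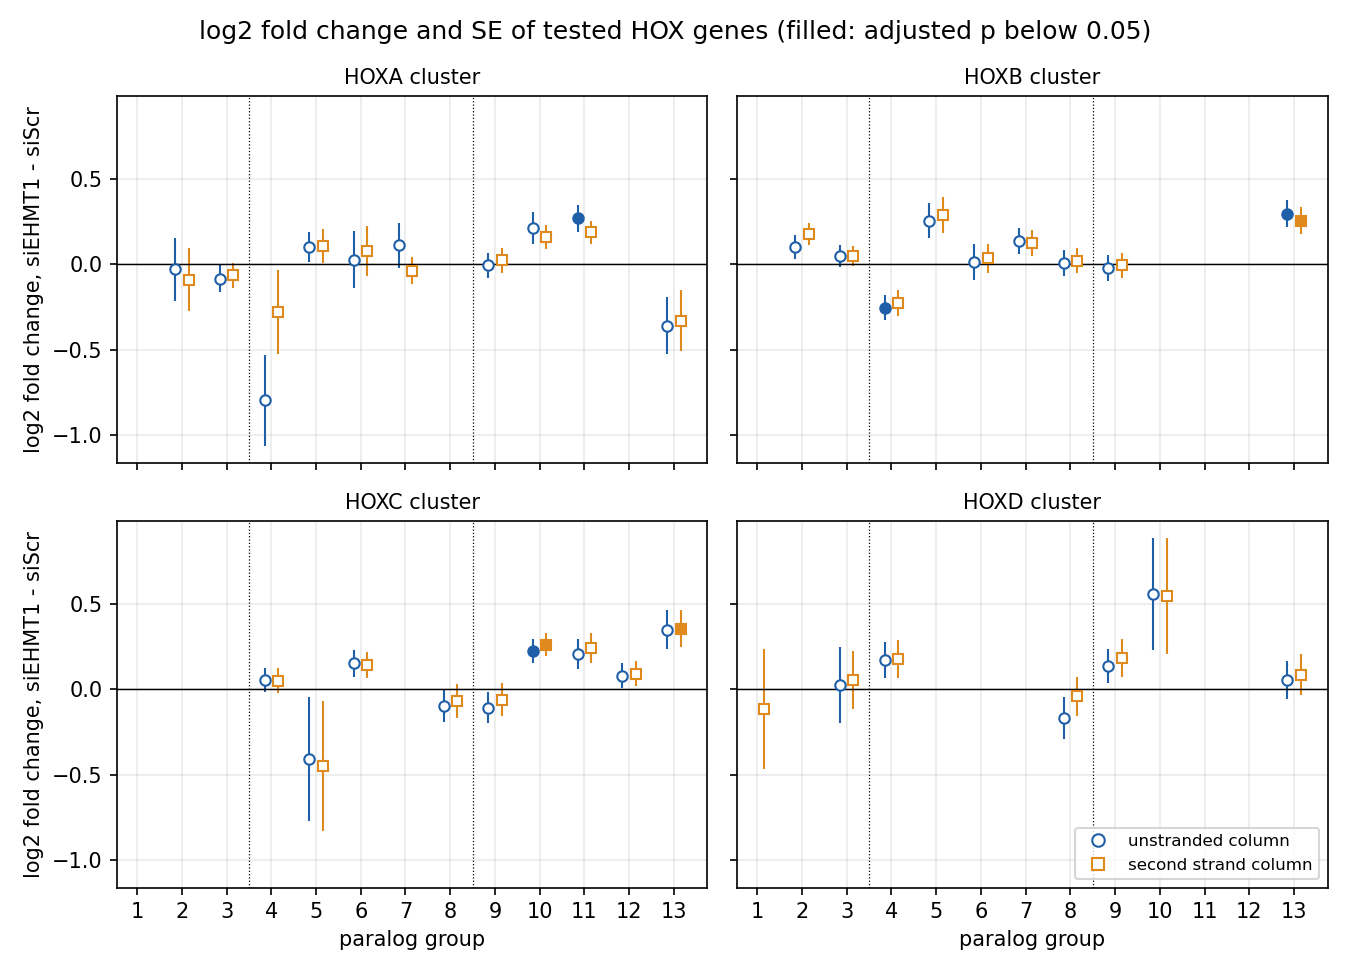
log2 fold change (siEHMT1 minus siScr) with its SE for the tested HOX genes reported by paralog group, 1 panel per cluster; blue circles are the unstranded column, orange squares the second strand column, and filled symbols have an edgeR adjusted p below 0.05. Values from group 9 upward lie mostly above 0, with HOXA13 (-0.36 unstranded) the lowest of them.

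Summed over its members, the posterior class separated the groups in both columns while the other position classes did not. The sums, computed after the members' values were seen, were 207, 216 and 220 CPM in siScr replicates 1, 2 and 3 and 233, 226 and 243 CPM with siEHMT1. By strand they were 229 to 240 CPM with siScr and 249 to 267 CPM with siEHMT1. The central sums overlapped, at 207, 237 and 228 CPM with siScr and 219, 229 and 237 CPM with siEHMT1. The anterior sums overlapped as well, at 94.8 to 103 and 99.3 to 105 CPM. Over all 39 genes the unstranded sum was 538 ± 26.1 CPM with siScr and 565 ± 17.6 CPM with siEHMT1 (SD, n = 3). The groups overlapped, and siScr replicate 1 was lowest at 508 CPM. By strand this sum did not overlap, at 577, 626 and 617 CPM with siScr and 630, 635 and 661 CPM with siEHMT1. By cluster, the HOXA sum was 107 and 112 CPM, the HOXB sum 251 and 259, the HOXC sum 150 and 163 and the HOXD sum 29.9 and 31.2 CPM with siScr and siEHMT1. These unstranded sums overlapped between groups in every cluster. By strand the HOXC sum separated the groups (138 to 152 and 155 to 165 CPM), as did the HOXD sum (29.5 to 30.3 and 30.7 to 32.8 CPM). The HOXA and HOXB sums overlapped there too.

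**Figure D5:**
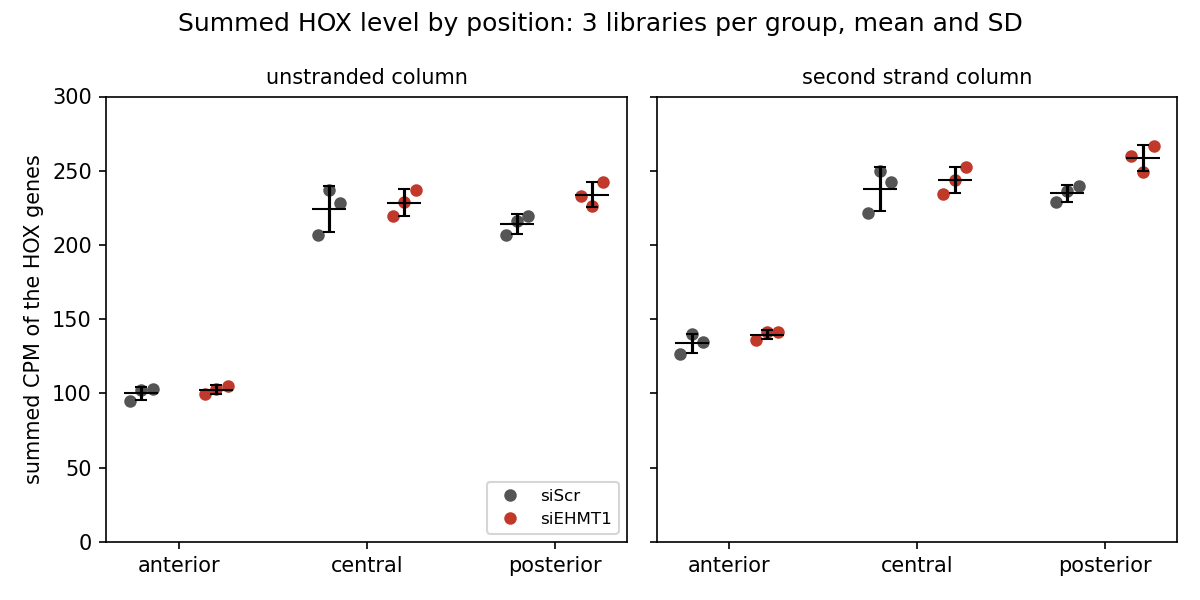
Summed CPM of the anterior, central and posterior HOX genes in each library (grey siScr, red siEHMT1), with the mean and SD (n = 3), for the unstranded and the second strand column. The posterior sums with siEHMT1 (226 to 243 CPM unstranded) lie above those with siScr (207 to 220 CPM), and the other sums overlap.

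Copies of the same paralog group are given side by side, and the differences between them were not tested. In group 13, HOXB13 and HOXC13 were at 0.30 and 0.35, HOXD13 was at 0.05 (SE 0.109, edgeR adjusted p = 0.813) and HOXA13 at -0.36 (SE 0.167, edgeR adjusted p = 0.185) on the log2 scale. HOXA13 went from 2.80, 2.25 and 2.71 CPM to 2.06, 1.90 and 2.10 CPM, without overlap in the unstranded column. In group 11, HOXC11 had 14.2, 15.01 and 14.9 CPM with siScr and 16.1, 15.8 and 19.1 CPM with siEHMT1 (log2 fold change 0.21, edgeR adjusted p = 0.138), beside the rise of HOXA11. In group 10, HOXA10 was at 0.21 (edgeR adjusted p = 0.153), with overlap, and HOXD10 at 0.56 (SE 0.327, edgeR adjusted p = 0.305). In group 9 the fold changes were -0.005 for HOXA9, -0.02 for HOXB9, -0.11 for HOXC9 and 0.13 for HOXD9, none called. In group 4, beside the fall of HOXB4, HOXC4 was at 0.05 and HOXD4 at 0.17 and neither passed.

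HOXA4 had the largest fold change of any HOX gene tested in the unstranded column, and it was not called. It had 1.11, 1.80 and 2.54 CPM with siScr and 0.969, 1.11 and 1.05 CPM with siEHMT1. The siScr libraries differed from each other by more than siScr replicate 1 differed from the siEHMT1 libraries. On the log2 scale it changed by -0.79 (SE 0.267, edgeR adjusted p = 0.0615), and by -0.28 in the second strand column, where the groups overlapped (edgeR adjusted p = 0.522). HOXC5 varied in a like manner, at 0.427, 0.625 and 1.04 CPM with siScr and 0.402, 0.530 and 0.634 CPM with siEHMT1.

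Of the anterior genes, 6 were tested unstranded and 7 by strand, and none was called in either column. Over all genes tested 12.4% and 12.8% were called, and the anterior genes are too few to set against that share. HOXB2 and HOXB3, the anterior genes with the most counts, were at 0.10 and 0.05 (edgeR adjusted p = 0.390 and 0.707). By strand HOXB2 had 42.4, 46.2 and 46.3 CPM with siScr and 47.6, 51.4 and 53.5 CPM with siEHMT1, without overlap and without passing (log2 fold change 0.18, edgeR adjusted p = 0.0793). Among central genes HOXB5 was at 0.26 (edgeR adjusted p = 0.119), HOXC6 at 0.15 (0.246) and HOXB7 at 0.14 (0.280). HOXB8, with 37.3, 45.1 and 44.4 CPM with siScr and 40.3, 42.5 and 44.7 CPM with siEHMT1, was at 0.01 with an SE of 0.075.

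The counts of calls changed with siScr replicate 2, the library that stood apart. Without it 6 HOX genes were called higher (HOXB5, HOXB7, HOXB13, HOXA11, HOXC6 and HOXC10) and 2 lower (HOXA4 and HOXB4) in the unstranded column. Over all genes the number called then rose from 2304 to 3548. In the second strand column 5 were then called higher and 1 lower. Without any 1 siEHMT1 library no HOX gene was called in either column by edgeR, with 6 to 11 at an unadjusted p below 0.05 in the unstranded column and 6 to 8 by strand. The number called over all genes fell as well, from 2304 to 1172, 936 and 1010 unstranded without siEHMT1 replicates 1, 2 and 3. Removing a library leaves 2 against 3. As in the main fit, the same spread is then taken for both groups. The siScr libraries differed more from each other than the siEHMT1 libraries did.

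No gene of the partners with which HOX proteins bind DNA was called. PBX, MEIS and PKNOX proteins are homeodomain cofactors, and all 9 genes tested were at 1 CPM or more. None was called in either column by edgeR, and none had an unadjusted p below 0.05, in edgeR, DESeq2 or limma-voom. Over all genes tested 12.4% were called unstranded and 12.8% by strand, and 9 genes are too few to set against that share. The list had a median log2 fold change of -0.05 and -0.04. PKNOX1 had the smallest adjusted p, from 31.6 ± 1.27 to 28.7 ± 0.0643 CPM (SD, n = 3; log2 fold change -0.14, edgeR adjusted p = 0.197). MEIS3 was at 0.25, PKNOX2 at 0.11 and MEIS2 at -0.11, with edgeR adjusted p = 0.301, 0.342 and 0.389. PBX2 and MEIS2 were at 112 and 106 CPM with siScr. Without siScr replicate 2, 2 cofactor genes were called higher.

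Of 33 Polycomb and Trithorax genes tested, 4 fell and none rose in the unstranded column. RBBP7, a histone-binding protein of Polycomb repressive complex 2 and of other complexes, was at -0.35 (edgeR adjusted p = 0.00113). EZH2, the methyltransferase of that complex, was at -0.24 (edgeR adjusted p = 0.0117). WDR5, a core part of the Trithorax-type methyltransferases, was at -0.19 (edgeR adjusted p = 0.0248). These 3 were also lower by strand, where PHC2, named after its value was seen, was higher at 0.17 (edgeR adjusted p = 0.0411). The median over the list was -0.02, and its 12.1% called lower stands beside 6.54% of all genes. At an unadjusted p below 0.05, 9 were lower and 2 higher, and DESeq2 called 6 lower and 1 higher. Leaving out 1 library moved the unstranded counts: 9 were lower and 2 higher without siScr replicate 2, and 2 lower without siEHMT1 replicate 2 or 3. Whether these levels bear on the HOX genes was not tested.

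Transcripts interleaved with the clusters were tested as well. Of 19 non-coding RNA genes of the clusters in the tables, 16 were tested in the unstranded column and edgeR called none, with 1 at an unadjusted p below 0.05, and DESeq2 called none. By strand 14 were tested and 1 was called. Over all genes 12.4% were called unstranded and 12.8% by strand, and this list is too short to set against that share. HOXB-AS1 was called higher in the second strand column, and how many of its reads there came from the opposite strand was not tested. It had 4.01, 4.99 and 4.57 CPM there with siScr and 5.58, 7.16 and 6.45 CPM with siEHMT1 (log2 fold change 0.50, SE 0.132, edgeR adjusted p = 0.0178), without overlap. In the unstranded column it was at 1.52 CPM with siScr and a log2 fold change of -0.08 (edgeR adjusted p = 0.857), so the call rests on the column. Only 17.1% of its strand counts lay in the second strand column. The same was so for HOXB-AS3 (7.89%) and HOXA-AS3 (11.6%), while HOTAIR, a non-coding RNA of the HOXC cluster, had 90%. Reads on the first strand of an antisense gene lie on the strand of the HOX gene it overlaps, and most such reads were not counted in the unstranded column: HOXB-AS1 had 6679 counts on the first strand, 1375 on the second and 377 unstranded over the 6 libraries. HOTAIR was at 8.11 ± 1.24 CPM with siScr and 8.67 ± 0.183 CPM with siEHMT1 (edgeR adjusted p = 0.634). HOTTIP, a non-coding RNA at the posterior end of the HOXA cluster, was at 0.0620 CPM, at the floor.

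Genes near the clusters and other homeobox genes give the setting. Of 17 tested genes near a cluster, 2 rose and 2 fell in each column (unstranded 11.8% each, beside 5.81% and 6.54% of all genes). In the unstranded column 4 were higher without siScr replicate 2, 1 was higher without siEHMT1 replicate 1 or 3, and 1 was lower without siScr replicate 1 or any 1 siEHMT1 library. SKAP2 and HIBADH, on either side of the HOXA cluster, were at 0.43 and 0.26 (edgeR adjusted p = 0.00246 and 0.0115). CBX1 near HOXB and HNRNPA3 near HOXD were at -0.32 and -0.22 (edgeR adjusted p = 0.00126 and 0.0236). EVX1 and EVX2, homeobox genes at the ends of the HOXA and HOXD clusters, were at 0 and 0.00712 CPM with siScr, at or under the floor. Of 32 homeobox genes outside the clusters that were tested, 2 rose and 6 fell, 6.25% and 18.8% against 5.81% and 6.54% of all genes. Without siEHMT1 replicate 2, 1 was higher and 2 were lower, and without siEHMT1 replicate 1, 3 were higher and 3 lower. Without siEHMT1 replicate 3, 1 was higher and 4 were lower. PRRX2 fell from 8.42 ± 0.365 to 5.28 ± 0.313 CPM (log2 fold change -0.67, edgeR adjusted p = 0.000498), and ALX4 and EN2 were at -0.36 and -0.42 (edgeR adjusted p = 0.00276 and 0.00892). NKX3-2 rose from 2.24 ± 0.630 to 4.77 ± 0.741 CPM (log2 fold change 1.09, edgeR adjusted p = 0.00095), and MSX1, named after its value was seen, was at 0.25 (edgeR adjusted p = 0.0168). The median over this list was -0.13, against 0.05 over the HOX genes. No difference between the lists was tested.

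Muscle markers moved between the groups too. Of 10 tested, 3 rose (CHRNG, CHRND and PAX7, with log2 fold changes of 0.84, 0.41 and 0.28) and none fell by edgeR in the unstranded column, with 1 lower at an unadjusted p below 0.05. The 30% called higher and 0% called lower stand beside 5.81% and 6.54% of all genes. By strand and with DESeq2 4 markers rose. The summed level of the 12 was 1298 to 1483 CPM with siScr and 1512 to 1576 CPM with siEHMT1. MYOD1 was at 0.03 and MYOG at -0.14 on the log2 scale, neither called. The part of this in the HOX values was not tested. Epithelial, endothelial and blood markers summed to between 0.0945 and 0.851 CPM in every library. Only 1 epithelial, 1 endothelial and 0 blood markers passed the filter on low counts, and none was called.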

How the data were processed

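Per the labels' protocols, RNA caught on poly-T beads was fragmented and made into libraries with NEBNext Ultra reagents. Raw counts per gene were deposited, unnormalized, in the layout of STAR's gene count table, and the submitters' processing notes name STAR 2.5, HTSeq 0.6.1 and hg19. The identifiers are later than that build (58352 of 61552 in GENCODE release 29, 61399 with a symbol), so coordinates are those of RefSeq sequences on GRCh38.p14 alone. Which tool of the notes made the counts is not given in the sources used here. The kit is not described as directional, yet the second strand column held most strand counts.

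Reads that named no gene (20.0% to 21.2%) stayed out. Ambiguous reads were 9.94% to 10.3% of the unstranded and 4.40% to 4.67% of the second strand column. Counts were fitted with edgeR 4.0.16 (R 4.3.3) after TMM scaling and filterByExpr at a minimum count of 10, by the robust quasi-likelihood F test on group alone, Benjamini-Hochberg over all genes tested, threshold 0.05. SEs are the absolute log2 fold change over the square root of F. DESeq2 1.42.0, limma-voom (limma 3.58.1), other size factors, filters, a replicate block, strand columns and leaving out libraries were alternatives. Pairs of libraries differed by more than sampling noise, so each counted as 1 sample. Chi-square per degree of freedom was 8.88 to 21.0 between siScr pairs and 2.98 to 3.36 between siEHMT1 pairs.

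Members, lists and tests were chosen with earlier results of these data known. Values of 1 HOX gene and 1 Polycomb gene are not reported here; both stay in counts, sums and medians. Text named every HOX gene called in either column, and from other lists the 4 smallest adjusted p and each non-coding RNA called. Of the list symbols, HOXA10-HOXA9 and UTX were not matched. Libraries with SOX8 siRNA and their controls (6) were not used here.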

Additional observations from a re-analysis of the deposited data

How the results depend on the processing

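EHMT1 stayed called and below siScr under every alternative, the count of expressed HOX genes stayed at 33 in every column and without each siScr library (34 at 0.5 CPM and 26 at 5 CPM), and the median HOX log2 fold change kept its sign. With a threshold of 0.01 on the adjusted p, 1017 genes in all and 0 HOX genes were called in either direction, against 2304, 3 higher and 1 lower at 0.05. The strand column with few reads (first strand) called 177 genes and 0 HOX genes in either direction, with 6 HOX genes at an unadjusted p below 0.05. With no filter 2 HOX genes were lower (HOXA4 and HOXB4), and in the second strand column 0. Leaving out 1 library each gave 936 to 3548 genes, 0 to 6 HOX genes higher and 0 to 2 lower. In the second strand column, an alternative added after seeing the data, it gave 1061 to 3464 genes (1277, 1061 and 1176 without siEHMT1 replicates 1, 2 and 3), 0 to 5 HOX genes higher and 0 to 1 lower.

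With the replicate block, 5 HOX genes were higher and 2 lower unstranded, and 5 were higher and 1 lower (HOXB4, edgeR adjusted p = 0.0334) in the second strand column, again added after seeing the data. Replicate numbers share only a number: deviations of same-numbered libraries correlated at 0.0555, 0.0154 and 0.0250, though 5 of 6 libraries correlated best with their own number. HOXB13, HOXA11, HOXC10 and HOXB4 kept their call with DESeq2, limma-voom, both other size factors and both other filters. HOXC13 was also called unstranded with the block (edgeR adjusted p = 0.0176), upper quartile factors, either other filter and without siScr replicate 3. The cause of these differences was not tested.

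Depth limits HOXB1, HOXD11 and HOXD12, which had 0 to 8 counts per library.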
